A study of Mus musculus with 2 samples.

Results

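The 10 genes described here are secreted Wnt ligands (Wnt5a, Wnt5b), secreted inhibitors of Wnt signaling (Wif1, Frzb, Sfrp1, Sfrp2, Dkk2, Dkk3) and a pair of genes inside the receiving cell (Lef1, Axin2). They were chosen by symbol, 10 of the 21849 genes in the count matrices, and all 10 were found. The source of the cells, called costal-cartilage-derived stem cells (CDSCs), was rib cartilage of neonatal C57BL/6J mice, either CD45.1 or ZsGreen, in the first week of life. After digestion with type II collagenase, CD45- CD51+ cells were sorted, that is, cells without the leukocyte protein CD45 and with the integrin CD51. The primary group was 1 library of sorted CDSCs, and the cultured group was 1 library of CDSCs expanded in minimum essential medium with fetal bovine serum to passages 2 to 3. The study compared these libraries to ask whether CDSCs change in culture. For both libraries the tissue label reads bone marrow, and the labels do not say which of the donor strains, or how many mice, went into each.

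Wnt proteins are secreted, lipid-modified ligands that bind Frizzled receptors with LRP or ROR co-receptors. In the canonical branch they stabilize β-catenin, which acts with TCF/LEF factors on target genes, while Wnt5a and Wnt5b often act through ROR2 without β-catenin. Secreted inhibitors either bind the ligand (Wif1 and the Sfrp family) or block the LRP co-receptors (Dickkopf proteins). In growing cartilage these ligands and inhibitors are known for their part in the pace at which chondrocytes mature.

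After filtering, 11746 primary cells with 137148874 unique molecular identifiers (UMIs, 1 per captured transcript) and 5338 cultured cells with 330129909 UMIs were kept, with medians of 10027 and 56865 UMIs per cell. Counts were summed per library and scaled to CPM, the counts of a gene per 1000000 UMIs of its library. This level counts captured transcripts and was not scaled to transcript length. Whether reads from introns were counted was not given. With no replicate library, differences could not be set against the spread of a group, and none was tested. Fewer cells with a transcript and less of it per cell cannot be told apart in the summed levels. All intervals are exact 95% intervals that cover counting error only. The filter left out 1.26% of the primary and 50.6% of the cultured barcodes, and 15 barcodes were shared by the kept cells of both libraries. Itgav, which encodes CD51, stood at 92.5 and 109 CPM and Ptprc, which encodes CD45, at 0.620 and 0.345 CPM in primary and cultured CDSCs. The 9 hematopoietic markers summed to 8.07 and 26.4 CPM. The cartilage genes Col2a1 and Acan stood at 53269 and 1954 CPM in the primary library but at 490 and 2.51 CPM in the cultured one, so the cultured library did not carry the defining markers of cartilage cells at like levels. The libraries also differed in donors, with the ZsGreen transgene at 444 CPM in the primary library and at 0 counts in the cultured one, and the Y-linked gene Uty at 0.0802 and 61.2 CPM. Culture, donor and library therefore cannot be told apart in any difference below.

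Promoter sequence is shown for the members at the extremes of the comparison, Wif1 and Sfrp2, and for Wnt5b, the one member with a TCF/LEF core motif. RefSeq windows of 250 bases before a start site (GRCm38.p6) were held for 7 of the 10 members. The motifs CTTTGAA and CTTTGAT were searched on both strands. The windows below are written 5′ to 3′ on the strand of the gene, in lower case, with the motif in capitals. The Wif1 window is cut to 206 bases because GENCODE M21 places its last 44 bases in an exon.
Wif1, chr10:121033754-121033959, plus strand: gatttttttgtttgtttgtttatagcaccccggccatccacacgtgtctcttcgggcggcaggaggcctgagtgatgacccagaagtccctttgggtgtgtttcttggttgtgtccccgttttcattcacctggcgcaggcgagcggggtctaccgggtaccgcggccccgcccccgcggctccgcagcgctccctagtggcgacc
Sfrp2, chr3:83766071-83766320, plus strand: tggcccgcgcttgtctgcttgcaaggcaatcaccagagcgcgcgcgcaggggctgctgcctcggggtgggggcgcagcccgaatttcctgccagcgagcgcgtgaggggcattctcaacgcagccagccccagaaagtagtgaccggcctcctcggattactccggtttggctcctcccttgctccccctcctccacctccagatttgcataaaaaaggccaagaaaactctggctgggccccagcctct
Wnt5b, chr6:119449387-119449636, minus strand: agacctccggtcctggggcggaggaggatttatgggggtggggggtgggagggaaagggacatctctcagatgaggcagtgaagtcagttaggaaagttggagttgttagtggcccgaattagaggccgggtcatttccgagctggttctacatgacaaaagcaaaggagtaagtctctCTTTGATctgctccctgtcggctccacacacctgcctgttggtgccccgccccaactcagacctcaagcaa
The Wnt5b window belongs to the third of its RefSeq start sites, lies inside the gene and outside every GENCODE M21 exon of Wnt5b, and holds CTTTGAT 71 bases before that start. Neither motif was in the windows of the other 6 matched members (Wif1, Frzb, Sfrp2, Dkk2, Lef1 and Axin2). Among all 27025 genes with such windows, 8.63% had at least 1 match, so 1 of 7 members is a description and no more.

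In primary CDSCs, Wif1, Sfrp1 and Frzb were the leading members by CPM, whereas Sfrp2, Dkk3 and Sfrp1 led in cultured CDSCs. A minimum of 10 CPM in 1 or both libraries was reached by 7 members, and 6 of these differed 4-fold or more, with 2 higher in cultured CDSCs (Wnt5a and Sfrp2) and 4 lower (Wif1, Frzb, Sfrp1 and Lef1). Over all 9115 genes at that minimum, 10.6% were at least 4-fold higher in cultured CDSCs, 5.73% at least 4-fold lower and 16.3% either. The members were chosen with such results known, so these shares stand beside the count only as background. The median log2 ratio over the 9115 genes was 0.37, and TMM scaling shifted every log2 ratio by the same -0.20.

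**Figure D1:**
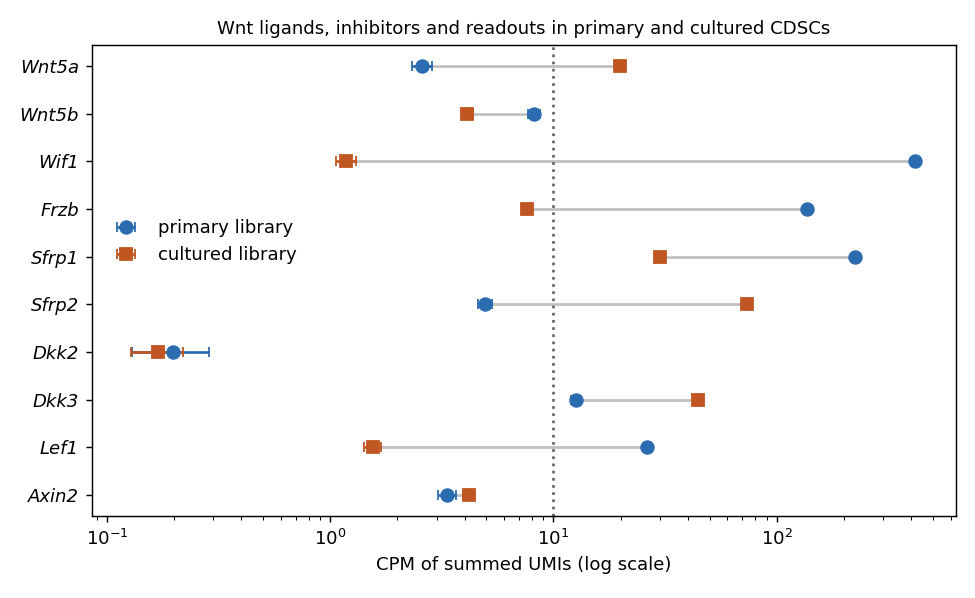
Level of each member in the primary library (circles) and the cultured library (squares), as CPM of summed UMIs on a log axis, with exact 95% Poisson intervals and a dotted line at 10 CPM. Wif1 spans the widest gap, from 418 to 1.18 CPM, and Sfrp2 moves the other way, from 4.94 to 73.4 CPM.

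Among the ligands, Wnt5a was higher in cultured CDSCs and Wnt5b lower. Wnt5a (ENSMUSG00000021994, chr14:28504750-28527448, plus strand), the classical non-canonical ligand, gave 354 UMIs or 2.58 CPM (2.32 to 2.86) in the primary library and 6559 UMIs or 19.9 CPM (19.4 to 20.4) in the cultured one. The log2 ratio of cultured over primary was 2.94 (2.79 to 3.10), and 94.4% of the 9115 genes lay below it. Wnt5b (ENSMUSG00000030170, chr6:119432531-119544347, minus strand), its close paralog expressed in prehypertrophic cartilage, stood at 8.18 CPM (7.71 to 8.67) in primary and 4.12 CPM (3.90 to 4.34) in cultured CDSCs. Its log2 ratio was -0.99 (-1.10 to -0.87), with both levels under the 10 CPM minimum. The order of the pair was therefore reversed between the libraries, Wnt5b being above Wnt5a in primary and below it in cultured CDSCs.

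The wider ligand list of 19 genes shows where these 2 members stand. All 19 ligands together gave 3267 UMIs or 23.8 CPM in primary and 35090 UMIs or 106 CPM in cultured CDSCs, a log2 ratio of sums of 2.16. In primary CDSCs, Wnt5b made up 34.3% of ligand UMIs, followed by Wnt9a at 18.2%, Wnt4 at 16.5%, Wnt11 at 13.7% and Wnt5a at 10.8%. In cultured CDSCs, Wnt10a, a canonical ligand, made up 67.0% of ligand UMIs, followed by Wnt5a at 18.7%, while Wnt5b made up 3.88%. Wnt10a went from 12 UMIs (0.0875 CPM) to 23515 UMIs (71.2 CPM), a log2 ratio of 9.67 (8.86 to 10.6). Wnt10a and Wnt5a were the 2 ligands at or above 10 CPM in either library, and both were past 4-fold higher. The other 17 ligands were under the minimum in both libraries.

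**Figure D2:**
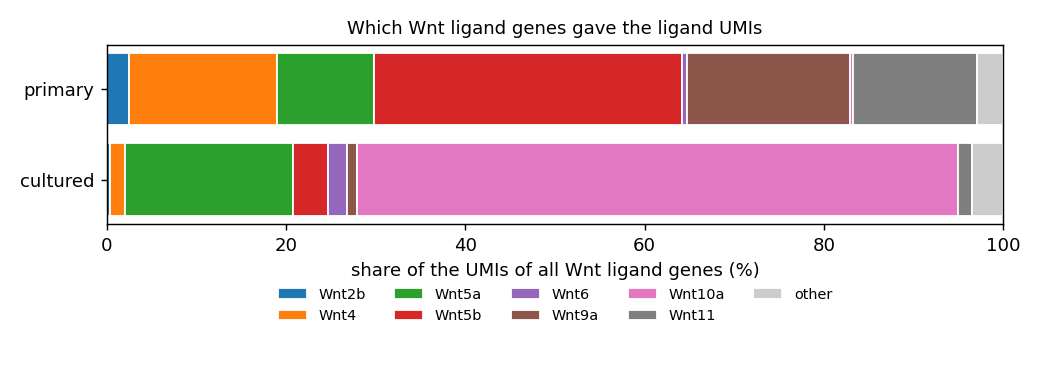
Share of the UMIs of all 19 Wnt ligand genes that each gene gave, in percent, in the primary and the cultured library. The largest share is Wnt5b at 34.3% in primary CDSCs and Wnt10a at 67.0% in cultured CDSCs.

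Among the inhibitors that bind Wnt proteins directly, Wif1, Frzb and Sfrp1 were lower in cultured CDSCs and Sfrp2 was higher. Wif1 (ENSMUSG00000020218, chr10:121033960-121100650, plus strand), Wnt inhibitory factor 1, gave 57285 UMIs or 418 CPM (414 to 421) in primary and 389 UMIs or 1.18 CPM (1.06 to 1.30) in cultured CDSCs. This is a 354-fold difference (interval 321 to 393) or a log2 ratio of -8.47, and 0.274% of the 9115 genes had a lower ratio. Frzb (ENSMUSG00000027004, chr2:80411970-80447625, minus strand), a secreted Frizzled-related protein of cartilage, stood at 136 CPM (134 to 138) in primary and 7.57 CPM (7.28 to 7.88) in cultured CDSCs, an 18.0-fold difference (17.2 to 18.7). Sfrp1 (ENSMUSG00000031548, chr8:23411502-23449632, plus strand), another member of that family, stood at 224 CPM (222 to 227) and 30.1 CPM (29.5 to 30.7), a 7.45-fold difference (7.29 to 7.62). Sfrp2 (ENSMUSG00000027996, chr3:83766321-83774316, plus strand), the family member typical of fibroblasts, went the opposite way, from 678 UMIs or 4.94 CPM (4.58 to 5.33) to 24247 UMIs or 73.4 CPM (72.5 to 74.4). It was 14.9-fold higher in cultured CDSCs (13.8 to 16.1). Of the primary Sfrp2 UMIs, 37.8% came from a mixed cluster that held 1.90% of the library's UMIs, and without that cluster the log2 ratio went from 3.89 to 4.55.

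The Dickkopf members were less far apart. Dkk3 (ENSMUSG00000030772, chr7:112116017-112159057, minus strand), a divergent member of the family that does not act as a typical LRP blocker, stood at 12.6 CPM (12.0 to 13.2) in primary and 44.4 CPM (43.6 to 45.1) in cultured CDSCs, a 3.52-fold difference (3.35 to 3.70) that stayed within 4-fold. Dkk2 (ENSMUSG00000028031, chr3:132085292-132180304, plus strand), an LRP5 and LRP6 antagonist, was near absent, with 27 UMIs or 0.197 CPM (0.130 to 0.286) in primary and 56 UMIs or 0.170 CPM (0.128 to 0.220) in cultured CDSCs. Its log2 ratio of -0.21 (-0.90 to 0.50) was within counting error. Of the 27 primary Dkk2 UMIs, 20 came from the same mixed cluster, and without it the log2 ratio was 1.71, so even its sign changed without those cells. The 6 inhibitor members together summed to 796 CPM in primary and 157 CPM in cultured CDSCs, a log2 ratio of sums of -2.34.

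The wider list of 16 secreted inhibitors had 7 genes at the minimum, 3 higher (Sfrp2, Sfrp4 and Igfbp4), 3 lower (Wif1, Frzb and Sfrp1) and Dkk3 within 4-fold. The other 9 were under the minimum in both libraries. Of these, Notum (9.84 and 0.666 CPM), Sostdc1 (7.98 and 0.00606 CPM) and Sfrp5 (3.32 and 0.00303 CPM) were lower in cultured CDSCs. Dkk1 was higher (0.0292 and 0.376 CPM). Sfrp4, a further Frizzled-related protein, stood at 0.984 CPM in primary and 12.5 CPM in cultured CDSCs, a log2 ratio of 3.67. Igfbp4, best known as a binding protein of insulin-like growth factors and reported to antagonize Frizzled and LRP6, stood at 18.5 and 221 CPM, a log2 ratio of 3.58. Of its primary UMIs, 41.5% came from the mixed cluster, and without that cluster its primary level was 11.0 CPM and its log2 ratio 4.33. Wif1 made up 49.9% of inhibitor UMIs in primary CDSCs, ahead of Sfrp1 at 26.8% and Frzb at 16.3%. In cultured CDSCs, Igfbp4 made up 56.5%, ahead of Sfrp2 at 18.7% and Dkk3 at 11.3%. The list summed to 836 CPM in primary and 392 CPM in cultured CDSCs, or to 818 and 170 CPM without Igfbp4.

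Of the members inside the cell, Lef1 was lower in cultured CDSCs and Axin2 was close to level. Lef1 (ENSMUSG00000027985, chr3:131110471-131224356, plus strand), a TCF/LEF transcription factor that is also a target of the canonical branch, stood at 26.2 CPM (25.4 to 27.1) in primary and 1.55 CPM (1.42 to 1.69) in cultured CDSCs, a 16.9-fold difference (15.4 to 18.6). Axin2 (ENSMUSG00000000142, chr11:108920349-108950783, plus strand), the feedback scaffold widely used as a readout of β-catenin activity, stood at 3.32 CPM (3.03 to 3.64) and 4.17 CPM (3.95 to 4.40). Its log2 ratio of 0.33 (0.17 to 0.48) lay at the middle of the 9115 genes, 48.3% of which were below it, and both levels were under the minimum. Among all 14 canonical targets, 6 reached the minimum, 1 was past 4-fold higher, 2 lower (Myc and the member Lef1) and 3 within. Over all 9115 genes, 16.3% were at least 4-fold apart in either direction. Ccnd1, the cyclin of early G1, stood at 11.6 CPM in primary and 368 CPM in cultured CDSCs, a log2 ratio of 4.99. Myc, a growth regulator, stood at 140 and 24.9 CPM, a log2 ratio of -2.49. The target list thus had genes past 4-fold in both directions.

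Over all 7 lists (89 genes, some in more than 1 list), 48 genes reached the minimum, of which 10 were past 4-fold higher, 6 lower and 32 within, with a median log2 ratio of 0.33. The 16 genes apart were 33.3% of those at the minimum, beside 16.3% over all genes, and the other 41 genes of the lists were under the minimum. These 16 include the 6 members that were apart. Members and lists were chosen with earlier results of these data known, so the 2 shares stand side by side only as background. None of the 16 intracellular core genes at the minimum was past 4-fold apart except Lef1, and Ctnnb1, which encodes β-catenin, was the most abundant of them in primary CDSCs at 227 CPM. Csnk1a1, a kinase of the β-catenin destruction complex, led that list in cultured CDSCs at 326 CPM. Of the 14 receptors and co-receptors at the minimum, 2 were past 4-fold higher, 1 lower and 11 within. Fzd9, the most abundant receptor in primary CDSCs, stood at 209 CPM there and 2.35 CPM in cultured CDSCs, a log2 ratio of -6.47. Fzd5 went from 1.68 to 19.9 CPM (log2 ratio 3.57) and Fzd8 from 7.27 to 35.3 CPM (log2 ratio 2.28). Ryk, an atypical Wnt receptor, led the list in cultured CDSCs at 255 CPM.

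Upstream of the receptors, Wls, which carries Wnt proteins to the cell surface, stood at 76.4 CPM in primary and 486 CPM in cultured CDSCs, a log2 ratio of 2.67. Porcn, which attaches their lipid, was under the minimum in both libraries. Among the R-spondins and their receptors, which strengthen Wnt responses, 4 of 9 genes reached the minimum and only Rspo2 was past 4-fold apart. Rspo2 went from 0.328 to 17.5 CPM, a log2 ratio of 5.74, although 73.3% of its primary UMIs came from the mixed cluster, without which the ratio was 7.62. Lgr4 led that list in primary CDSCs at 80.0 CPM and Rspo3 in cultured CDSCs at 94.3 CPM.

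Because cultured cells were deeper, shares of cells with a UMI were compared after thinning to 5000 UMIs per cell. Cells shallower than that, 787 primary and 795 cultured, were set aside. Wif1 was then detected in 66.4% (65.5 to 67.3) of 10959 primary cells and in 0.506% (0.321 to 0.759) of 4543 cultured cells. Sfrp1 went from 62.5% to 8.89%, Frzb from 39.0% to 3.50% and Lef1 from 9.47% to 0.924%. In the other direction, Dkk3 went from 5.68% to 19.4%, Sfrp2 from 1.54% to 13.9% and Wnt5a from 1.33% to 9.13%. The share for Wnt5b was 3.01% (interval 2.70 to 3.35) in primary and 1.89% (interval 1.52 to 2.33) in cultured cells, but without thinning they were 5.55% and 13.9%, the opposite order, which happened for no other member. Without thinning the other shares were 78.2% and 4.55% for Wif1, 79.6% and 38.9% for Sfrp1, 56.5% and 21.4% for Frzb, 10.9% and 59.4% for Dkk3, 3.34% and 40.4% for Sfrp2 and 2.78% and 48.1% for Wnt5a. Lef1 without thinning was detected in 1882 of 11746 primary cells and 279 of 5338 cultured cells. The Axin2 shares were 1.72% (1.49 to 1.99) and 2.16% (1.75 to 2.62), and those of Dkk2 were 0.0730% and 0.110%, with intervals that overlapped for both genes at this depth. At 10000 UMIs per cell the Axin2 shares were 2.49% (2.11 to 2.92) and 4.50% (3.91 to 5.15), which did not overlap, and without thinning they were 3.62% and 18.6%. Only 5907 primary and 4423 cultured cells reached 10000 UMIs, so depth and the set of cells changed together. The primary cluster with the highest Axin2 level, 8.90 CPM, had a median of 7340 UMIs per cell. The Dkk2 shares without thinning were 0.0851% and 0.468%. Thinned Wnt10a was detected in 0.0639% of primary and 25.2% of cultured cells.

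**Figure D3:**
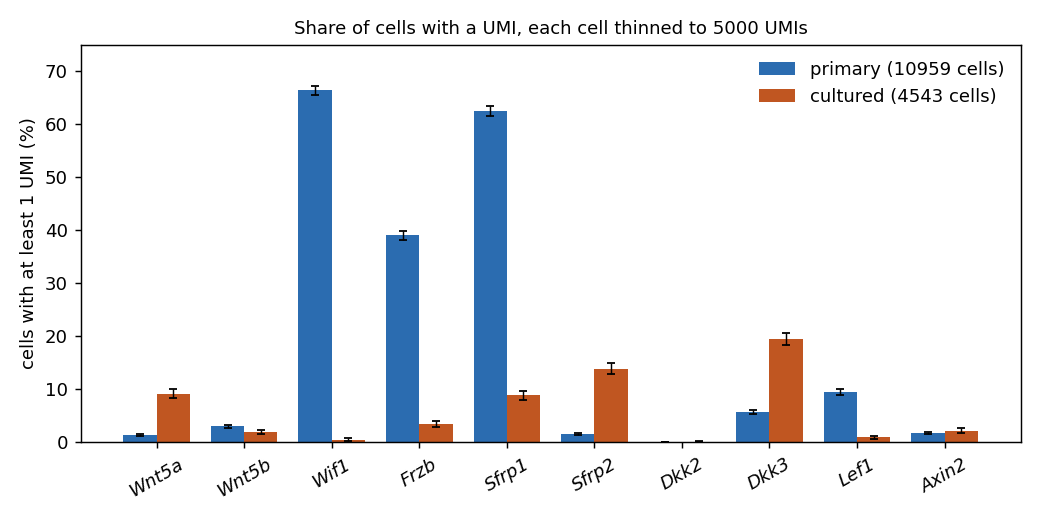
Percentage of cells with at least 1 UMI of each member after thinning every cell to 5000 UMIs, for 10959 primary and 4543 cultured cells, with exact 95% binomial intervals as error bars. Wif1, Sfrp1, Frzb and Lef1 are taller in primary CDSCs and Dkk3, Sfrp2 and Wnt5a in cultured CDSCs.

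A UMI in a cell can also come from free RNA, so levels were read in cells of other types. In 26 primary cells led by the mast cell genes Tpsb2, Cma1 and Mcpt4 and carrying endothelial markers (median 9403 UMIs), Wif1 stood at 222 CPM, Sfrp1 at 123 CPM and Frzb at 68.2 CPM. These 26 cells also had 8 chondrocyte markers at 1000 CPM or more, so they were not free of cartilage transcripts. Wif1 was detected in 33.3% (13.3 to 59.0) of the 18 such cells that could be thinned, Sfrp1 in 33.3% (13.3 to 59.0) and Frzb in 27.8% (9.69 to 53.5). The Wif1 and Sfrp1 shares of the whole primary library lay above these intervals, whereas the Frzb share of 39.0% lay inside its interval. By summed counts, Frzb gave 20 UMIs in the 26 cells where the library level would give 39.9. Its interval there, 41.7 to 105 CPM, lay below the library level of 136 CPM. Lef1 gave 1 UMI in the 26 cells where the library level would give 7.69, and Dkk3 gave 0 where it would give 3.70. In 9 hematopoietic-like cultured cells (median 35946 UMIs), Sfrp2 gave 0 UMIs where the library level would give 29.8, and the interval for 0 counts reached up to 9.10 CPM. Wnt5a likewise gave 0 UMIs where 8.05 would match the library, Sfrp1 gave 1 where 12.2 would, and Wnt10a gave 3 where 28.9 would. In those 9 cells Igfbp4 stood at 338 CPM (284 to 400; library 221), Ccnd1 at 427 CPM (366 to 495; library 368) and Wls at 395 CPM (336 to 461; library 486). In the 26 primary cells, Fzd9 stood at 181 CPM (135 to 237), an interval that includes its library level, and Ccnd1 at 143 CPM, above its library level of 11.6 CPM. Whether these counts are free RNA or the cells' own was not tested.

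Ligand and inhibitor transcripts were also counted within single cells. At 5000 UMIs, 93.3% of primary and 37.6% of cultured cells held a UMI of at least 1 of the 6 inhibitor members, and 63.1% and 7.66% held at least 2 of them. A UMI of any of the 19 ligands was found in 9.51% of primary and 36.9% of cultured cells. Cells with a ligand but no inhibitor member made up 1.19% (0.992 to 1.41) in the primary library and 23.6% (22.4 to 24.9) in the cultured library, and cells with both 8.32% and 13.3%. Without thinning, cells with both made up 16.9% of primary and 69.7% of cultured cells, and cells with a ligand but no inhibitor member 0.792% and 9.25%. These shares set all 19 ligands against 6 inhibitors and leave out Igfbp4, which was detected in 5.80% of primary and 52.0% of cultured cells at 5000 UMIs. Against all 16 inhibitors of the wider list, a comparison chosen after seeing the data, cells with a ligand but no inhibitor made up 0.849% (0.685 to 1.04) of the primary and 12.1% (11.1 to 13.0) of the cultured library at 5000 UMIs, and 0.375% and 2.12% without thinning. The part of free RNA in these shares was not tested.

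Within the primary library, Leiden clustering gave 10 clusters, of which 9 were chondrocyte-like. That name rests on a level of chondrocyte markers that all 10 clusters reached. The remaining cluster, of 288 cells, was led by Tpsb2, Cma1 and Mcpt4 and mixed markers of fibroblasts, mast cells and endothelial cells. Clustered again, it held the 26 cells with mast cell genes described above, and each other part carried at least 3 fibroblast markers. The 26 cells gave 1 of the cluster's 256 Sfrp2 UMIs and 1 of its 32 Wnt5a UMIs. They gave 0 of its 20 Dkk2, 0 of its 189 Dkk3 and 33 of its 1050 Igfbp4 UMIs. Among the 10 members, 7 reached 10 CPM in a cluster and were at least 4-fold apart between the highest and the lowest cluster, against 22.3% of 9611 genes at that minimum. Dkk2 (at most 7.67 CPM) and Axin2 (at most 8.90 CPM) did not reach it in any cluster. The clusters were made from the same cells and genes, so their levels are a description. Wif1 was highest at 822 CPM in the cluster led by Tll1, Clu and Ppargc1a, followed by 682 CPM in the largest cluster led by Cytl1, Arl4a and Klf2. It was lowest at 115 CPM in the cluster led by Aoc2, Acta2 and Nog. Frzb had the opposite extremes, with 274 CPM in the cluster led by Aoc2, Acta2 and Nog and 46.0 CPM in the one led by Tll1, Clu and Ppargc1a. Sfrp1 was the evenest of the abundant inhibitors, between 120 and 276 CPM, a 2.31-fold range.

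The rarer members marked particular primary clusters. Wnt5b stood at 54.9 CPM (50.7 to 59.4) in a cluster of 878 cells led by Slc35f1, Runx3 and Wnt5b itself, which gave 623 of its 1122 UMIs (55.5%) from 8.27% of the library's UMIs. Outside that cluster it reached 28.8 CPM in the mixed cluster and gave 55 UMIs in the dividing cluster led by Pbk, Cenpf and Esco2, and it stood at most at 4.24 CPM in the others. Lef1 was highest in the same cluster as Wnt5b, at 108 CPM, and lowest at 9.21 CPM in the cluster led by Trf, Fam43a and Fzd9. Axin2 did not share that peak, with 4.14 CPM there and its highest level, 8.90 CPM, in the cluster led by Tll1, Clu and Ppargc1a. Wnt5a and Dkk3 were highest in the mixed cluster (12.3 and 72.5 CPM) and next in the cluster led by Tll1, Clu and Ppargc1a (6.11 and 32.6 CPM). Wnt5a was lowest at 0.970 CPM (0.484 to 1.74) from 11 UMIs in the Wnt5b cluster. That interval overlapped the one in the cluster led by Aoc2, Acta2 and Nog, 0.987 CPM (0.619 to 1.49). Dkk3 was lowest in the latter cluster, at 1.39 CPM. Sfrp2 stood at 98.2 CPM in the mixed cluster and between 1.16 and 6.95 CPM in the 9 chondrocyte-like ones.

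**Figure D4:**
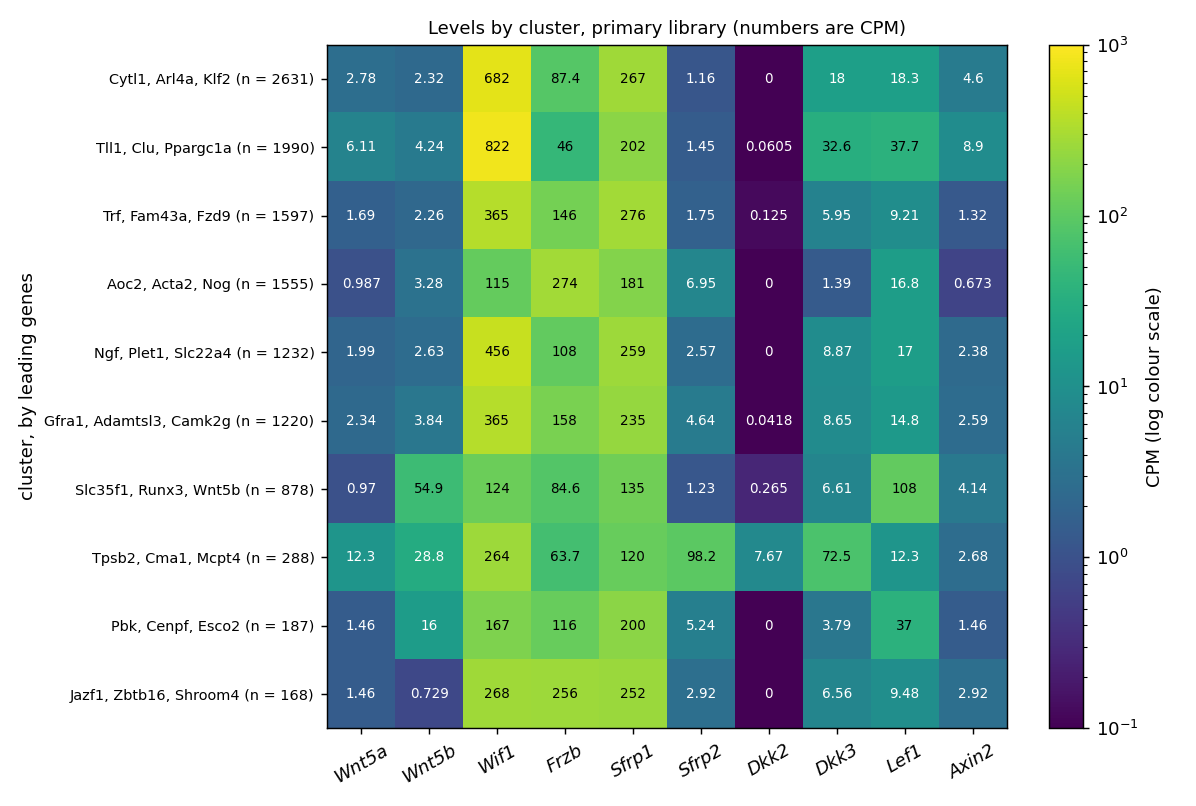
CPM of each member (columns) in each cluster of the primary library (rows, named by 3 leading genes with the number of cells), printed in each field over a log color scale from 0.1 to 1000 CPM. Wif1 and Frzb have opposite extremes, and Wnt5b and Lef1 share the cluster led by Slc35f1, Runx3 and Wnt5b.

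At 5000 UMIs, Lef1 was detected in 25.5% (20.8 to 30.5) of the 330 cells with a Wnt5b UMI and in 8.98% (8.44 to 9.53) of the 10629 cells without one. Frzb was detected in 33.4% of cells with Wif1 and in 1843 of the 3685 cells without it. Wif1 was detected in 87.3% (84.4 to 89.8) of the 623 cells with Dkk3 and in 65.1% of the others. Sfrp1, in turn, was detected in 63.0% of cells with Frzb and 62.1% of cells without it, with overlapping intervals. Cells of 1 library share its preparation and free RNA, and these shares carry no test.

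In the cultured library, 8 clusters had at least 50 cells, and none of them met the rule for a named cell type. Among the 10 members, 6 reached 10 CPM in a cluster and were at least 4-fold apart between clusters, against 52.1% of 9908 genes at that minimum. Wif1 (at most 4.20 CPM) and Dkk2 (at most 1.24 CPM) did not reach it in any cluster. Sfrp2 peaked at 421 CPM in a cluster of 271 cells led by Nr5a2, Barx1 and Sfrp2, which gave 10131 of its 24247 UMIs. Frzb (27.4 CPM) and Wif1 (4.20 CPM) were highest in that cluster too. Wnt10a was highest at 93.6 CPM in the largest cluster, led by Saa3, Klk8 and Angptl7, where Wnt5b was lowest at 1.58 CPM. Dkk3 was highest at 79.7 CPM in the cluster led by Mmp13, Comp and Pdzrn4. Lef1 (14.3 CPM, 23 UMIs) and Axin2 (16.1 CPM, 26 UMIs) both peaked in the smallest cluster, 54 cells led by Lars2, Csmd3 and Cfap157. Its median was 20719 UMIs per cell, against 56865 in the library, and the mitochondrial gene mt-Nd6 was among its leading genes. Whether these are intact cells was not tested. With clusters of at least 100 cells, which leaves that cluster out, the 6 members apart became 4. That cluster also held Rspo2 at 133 CPM, its highest level. A cluster of 879 cells led by Cmss1, Lars2 and Camk1d had a median of only 1291 UMIs per cell.

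**Figure D5:**
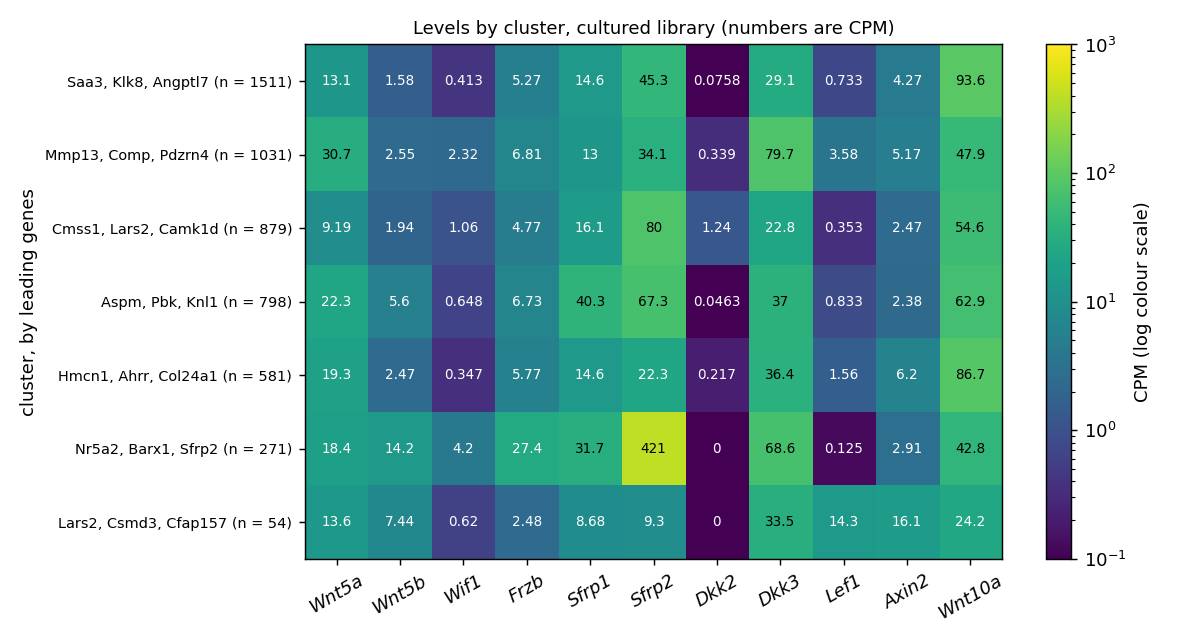
CPM of each member and of Wnt10a (columns) in 7 of the 8 clusters of the cultured library with at least 50 cells (rows, named by 3 leading genes with the number of cells), over a log color scale from 0.1 to 1000 CPM. Sfrp2 stands out at 421 CPM in the cluster led by Nr5a2, Barx1 and Sfrp2.

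The genes most like a member were ranked by Pearson r of log2(CPM + 10) over the clusters of a library. This is a description over 10 primary or 8 cultured clusters that share a library. The 8 cultured clusters include the cluster whose levels are not reported here. Among 3030 primary candidates, Wif1 was most like Lrba (r = 0.957), Cytl1 (0.941) and Dlk1 (0.938), and Frzb most like Ssr4 (0.974), Slc39a11 (0.970) and Rcn1 (0.960). Dkk3 was most like Foxp1 (0.989), B2m (0.987) and Sema3c (0.984). Sfrp1 and Lef1 had weaker matches, led by Tafa5 (0.891) and Slc35d1 (0.853). Among 3476 cultured candidates, Sfrp1 was most like Col1a2 (0.967), Cnn1 (0.952) and Csrp1 (0.942), and Sfrp2 most like Csrp2 (0.950), Ckb (0.924) and Mfge8 (0.892). Wnt5a was most like Znhit6 (0.946) and Dkk3 most like Ccn2 (0.957). Between members, the closest pair was Wnt5a and Dkk3 in primary CDSCs (0.968) and Frzb and Sfrp2 in cultured CDSCs (0.900). Wnt5a and Dkk3 were both highest in the mixed primary cluster. Wnt5a stood at 12.3 CPM there, from 32 UMIs, and at most at 6.11 CPM in any other primary cluster. The most negative primary pairs were Wnt5b and Sfrp1 (-0.863) and Frzb and Dkk3 (-0.742), and Wif1 and Frzb stood at -0.480.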

How the data were processed

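Single-cell RNA sequencing was analyzed for 1 primary and 1 cultured CDSC library, with groups taken from the treatment labels. The authors deposited raw UMI counts for each gene in each barcode, made with Cell Ranger 7.0.0 per the file headers. The study's methods name mm10/GRCm38, the submitters' processing notes also list GRCm39, and the annotation release and the counting of intronic reads were not given in the sources used here. Coordinates are those of GENCODE M21 (GRCm38), matched by gene identifier.

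Kept barcodes had 500 or more genes, 1000 or more UMIs and no more than 10% of UMIs from mitochondrial genes. The automatic Scrublet threshold called 0 primary and 1 cultured doublet and had not worked, so doublets were left in, and an alternative left out the 1118 primary and 461 cultured cells with the highest scores. Counts were summed per library, scaled to CPM and compared as log2 ratios of cultured over primary, with counts under 3 raised to 3. A gene counted as apart with at least 10 CPM in either library and a 4-fold difference. A count of 3 equals 0.0219 CPM (primary) or 0.00909 CPM (cultured). Intervals were exact Poisson, conditional or Clopper-Pearson intervals (scipy 1.17.1). Each library was clustered alone (scanpy 1.11.5, Leiden, 2000 variable genes, 10 components, 20 neighbors, resolution 0.5). The mixed primary cluster was clustered again (10 neighbors, resolution 1). A cluster was named from fixed markers, or as chondrocyte-like where at least 3 chondrocyte markers reached 1000 CPM, a step that free RNA can affect. Every primary cluster reached that level, so there the name means only that no other type's markers stood out. The levels of 1 of the 8 cultured clusters are not reported here. Leading genes had the highest fold over the other cells among genes of at least 50 CPM.

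All 10 members were named. Other pathway genes were named if 4-fold apart or most abundant in their list. Porcn, Wnt4, Wnt9a, Wnt11, Notum, Sostdc1, Sfrp5 and Dkk1 were chosen after their values were seen. The 3 most alike genes came from genes of at least 50 CPM. The members and all lists were chosen with earlier results of these data known. The summing and calling were tested on simulated counts. TMM scaling came from edgeR 4.0.16 and median-of-ratios scaling from DESeq2 1.42.0, both used for scaling only.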

Additional observations from a re-analysis of the deposited data

Results flagged for a closer look

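The barcodes that the filter left out still held counts of the members. In the 150 primary barcodes left out (210140 UMIs), 4 members had over 3 counts, the floor to which lower counts were raised for ratios. They were Wif1 (23 UMIs, 109 CPM), Frzb (21 UMIs), Sfrp1 (15 UMIs) and Lef1 (15 UMIs, 71.4 CPM against 26.2 CPM in the kept cells). In the 5460 cultured barcodes left out (6298068 UMIs), 9 members had over 3 counts, all but Dkk2. Sfrp2 stood at 153 CPM in those barcodes against 73.4 CPM in the kept cells, and Dkk3 at 64.8 against 44.4 CPM. What these barcodes hold, cells or free RNA, was not tested.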

How the results depend on the processing

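No paired analysis was possible because each group was 1 library, and for the same reason no replicate could be left out. The count of 6 members at least 4-fold apart was 3 with a minimum of 100 CPM (0 higher), which by construction left fewer genes, and 7 at 2-fold, and it was 6 under every other alternative run. The count over all genes, 1488 in the comparison above, was 2575 with a minimum of 1 CPM (1615 higher, 960 lower), 487 with 100 CPM (276 higher, 211 lower), 3950 with no minimum (2011 higher, 1939 lower) and 3625 at 2-fold (2482 higher, 1143 lower). The count over pathway genes, 16 above, was 8 with 100 CPM (3 higher), 30 with no minimum (16 higher, 14 lower) and 26 at 2-fold (16 higher, 10 lower). Other scalings, cell filters, doublet removal, equal weights per cell and the cluster settings kept these counts within 1.5 times. Members apart between clusters numbered 6 to 7 in the primary and 4 to 8 in the cultured library over the cluster settings. Leaving out shallow cultured clusters or dividing clusters, both chosen after seeing the data, did so too. Log2 ratios ranged from 2.73 to 3.05 for Wnt5a, -1.21 to -0.92 for Wnt5b, -8.69 to -8.28 for Wif1, -4.39 to -3.83 for Frzb, -3.12 to -2.80 for Sfrp1, 3.67 to 4.55 for Sfrp2, 1.60 to 1.95 for Dkk3, -4.30 to -3.88 for Lef1, 0.11 to 0.45 for Axin2 and -0.43 to 1.71 for Dkk2. The direction changed for Dkk2, whose interval spans 0, and for the Wnt5b share of cells, where cultured minus primary was 8.35 percentage points without thinning. At 2500 and 10000 UMIs per cell, as at 5000, 5 members had the higher share in cultured CDSCs, and without thinning 6 did. The Axin2 difference went from 0.43 points at 5000 UMIs to 2.01 at 10000 and 15.0 without thinning, and the set of cells differed between these settings. Differences between mice, preparations and runs cannot be estimated from 1 library per group.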
